A study of Mus musculus with 60 samples.

Results

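Border-associated macrophages are the resident macrophages of the meninges, the perivascular spaces and the choroid plexus, and 7 genes that mark them were followed through the deposited microglial RNA-seq libraries. The genes were Mrc1, Cd163, Lyve1, Stab1, Pf4, F13a1 and Cbr2. They were picked by name as known markers of these cells, and they are 7 of the 22869 gene symbols in the table of counts. Each had a transcript row marked in that table, and that row was used. Levels are counts per 1000000 (CPM), with the counts of all 22869 symbols of a library as its total.

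The series compared microglia of both sexes through development and after lipopolysaccharide (LPS), a component of the outer membrane of Gram-negative bacteria that activates innate immune receptors. All mice were of the C57BL/6N strain. By title there were untreated libraries from embryonic day 18 (E18, 4 male and 3 female), postnatal day 4 (P4, 4 male and 4 female) and P14 (10 male and 10 female). At P60 there were libraries from mice given LPS (7 male and 6 female) and from mice given saline (5 male and 7 female). The sources used here do not state how the cells were isolated, nor the dose and timing of LPS. The labels name microglia as the tissue and are silent on whether libraries came from different animals, so the p-values below measure only the spread between libraries, which may be technical.

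Microglia settle in the brain parenchyma before birth, whereas border macrophages line vessels, membranes and the choroid plexus. Both first arise from yolk sac precursors and share many transcripts. Border macrophages are known for scavenging: Mrc1 encodes the mannose receptor, Cd163 the receptor for haemoglobin bound to haptoglobin, Lyve1 a receptor for the matrix polymer hyaluronan, and Stab1 the scavenger receptor stabilin-1. Pf4 encodes a chemokine also stored in platelets, F13a1 the catalytic subunit of clotting factor XIII, a transglutaminase that cross-links proteins, and Cbr2 a carbonyl reductase.

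Total counts ran from 802016 to 3497454 per library, with a median of 1907007.5, so that 1 CPM corresponds to a few counts at most. All members were detected in all 60 libraries, except Cbr2, which had 0 counts in F_P60_Sal 5, which allows a level of up to 3.42 CPM (3 counts, counting error only). The 12 microglial identity genes, among them P2ry12, Tmem119 and Sall1, were detected in every library. Their summed level had medians of 5310.2 CPM at E18, 13130 CPM at P4, 24335 CPM at P14 and 33126 CPM at P60 with saline. The 7 members summed to medians of 1122 CPM, 1566 CPM, 947 CPM and 776 CPM at those stages. Stab1 made up a median of 38.3% of that sum at E18 and 76.1% at P60 with saline. Mrc1 made up 23.8% and 15.8%. The sum therefore says little about the other members, which are described singly below. These bulk libraries do not show which cells the counts of a member came from. A smaller number of cells and less RNA per cell cannot be told apart in them either.

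Some libraries stood apart. Ttr, a transcript of the choroid plexus epithelium, took over 10% of the counts in 3 libraries, with 24.8% in the library labelled M_E18 4, 12% in F_P60_Sal 6 and 10.4% in M_E18 3. The library labelled M_E18 4 also had no Y-linked counts against its title, and 45% of its counts lay in transcripts of at most 1500 bases, against a median of 14.2% over the 7 E18 libraries. Ttr was not taken out of the counts for this share, here or below. The sex in the title and in the sex characteristic disagreed for 10 of the 60 libraries, and the title was kept. In these, Xist, the X-inactivation transcript of female cells, ran from 1091 to 3749 CPM where the title said female. Where the title said male it ran from 3.75 to 27.5 CPM, apart from 132 CPM in the library labelled M_E18 4. No label date held libraries of 2 stages, or of both LPS and saline, so a difference in date cannot be told apart from a difference in stage or treatment.

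In the results below, Mrc1, Cd163 and F13a1 varied together across libraries, and Stab1 varied little with them. The start regions of these genes are shown for that reason. Each is 250 bases before to 50 after the start of the transcript counted here, 5′ to 3′, from RefSeq on build GRCm38.p6. That assembly is not the one used for the counts. Entries were found for 6 of the 7 members. Capitals mark GAGGAA, the core bound by ETS family factors such as those that specify macrophages, or TGCTGA, the core bound by Maf factors, on either strand (TTCCTC and TCAGCA when read on the other), and no match overlapped another motif searched. The Mrc1 region lies at chr2:14229164-14229463 on the plus strand, that of Cd163 at chr6:124304401-124304700 on the plus strand, that of F13a1 at chr13:37049164-37049463 on the minus strand, and that of Stab1 at chr14:31168592-31168891 on the minus strand.
Mrc1: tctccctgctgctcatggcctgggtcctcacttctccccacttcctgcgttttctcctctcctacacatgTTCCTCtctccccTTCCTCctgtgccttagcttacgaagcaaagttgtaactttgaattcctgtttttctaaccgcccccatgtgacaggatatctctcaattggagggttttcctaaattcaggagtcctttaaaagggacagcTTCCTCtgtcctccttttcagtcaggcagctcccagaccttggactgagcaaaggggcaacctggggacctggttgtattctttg
Cd163: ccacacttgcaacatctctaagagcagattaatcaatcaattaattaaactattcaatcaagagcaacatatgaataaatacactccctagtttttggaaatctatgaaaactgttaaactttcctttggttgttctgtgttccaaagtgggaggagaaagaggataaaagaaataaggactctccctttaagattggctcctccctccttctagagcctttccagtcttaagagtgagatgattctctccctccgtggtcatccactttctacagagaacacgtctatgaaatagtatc
F13a1: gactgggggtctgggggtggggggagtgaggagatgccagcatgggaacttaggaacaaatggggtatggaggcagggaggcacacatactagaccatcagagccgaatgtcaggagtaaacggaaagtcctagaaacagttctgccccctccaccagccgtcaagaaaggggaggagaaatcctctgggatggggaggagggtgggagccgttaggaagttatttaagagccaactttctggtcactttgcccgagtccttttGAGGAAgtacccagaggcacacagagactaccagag
Stab1: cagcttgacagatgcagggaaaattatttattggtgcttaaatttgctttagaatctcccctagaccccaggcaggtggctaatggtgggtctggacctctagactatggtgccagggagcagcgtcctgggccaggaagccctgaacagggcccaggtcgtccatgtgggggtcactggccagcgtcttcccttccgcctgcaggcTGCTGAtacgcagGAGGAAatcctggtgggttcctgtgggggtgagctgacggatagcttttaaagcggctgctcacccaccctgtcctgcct
GAGGAA was present 3 times in the Mrc1 region and once in those of F13a1, Stab1, Pf4 and Cbr2, and these letters were not in the Cd163 region. Of all 32851 promoter entries of the same length, 28.28% held it. TGCTGA was in the Stab1 and Cbr2 regions, against 19.48% of all entries. The E-box CACGTG, found in 7.15% of all entries, was in none of the 6 regions. The same held for the TATA box TATAAA, found in 13.62% of all entries, and for the AP-1 site TGANTCA, found in 7.81%. A match to letters is a description of the sequence and not evidence of binding.

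Across development the members did not move as a block. Tests were edgeR quasi-likelihood tests with Benjamini-Hochberg adjustment over all genes, 13853 of them in the developmental libraries, with a threshold of 0.05 and the sexes weighted equally. At P4 against E18, 4 of the 7 members were called, 2 higher and 2 lower, where 48.3% of all genes were called, 25.5% higher and 22.7% lower. For P14 against P4, 4 of 7 were called, 1 higher and 3 lower, with 41.5% of all genes called, 20.6% higher and 20.8% lower. For P60 saline against P14, 5 of 7 were called and all 5 were lower, with 44.1% of all genes called, 18.5% higher and 25.7% lower. Over the whole span, P60 saline against E18, 5 of 7 were called, 1 higher and 4 lower, with 66.3% of all genes called, 31.4% higher and 34.8% lower. At P4 and over the whole span the members' counts lay near these backgrounds. The 5 called at P60 with saline against P14 were all lower, where the calls over all genes went both ways, and this contrast with the background was not tested. The median change of the 7 was -0.28, -0.32, -0.94 and -1.01 on the log2 scale in these comparisons, against 0.03, -0.01, -0.06 and -0.08 over all genes tested.

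**Figure D1:**
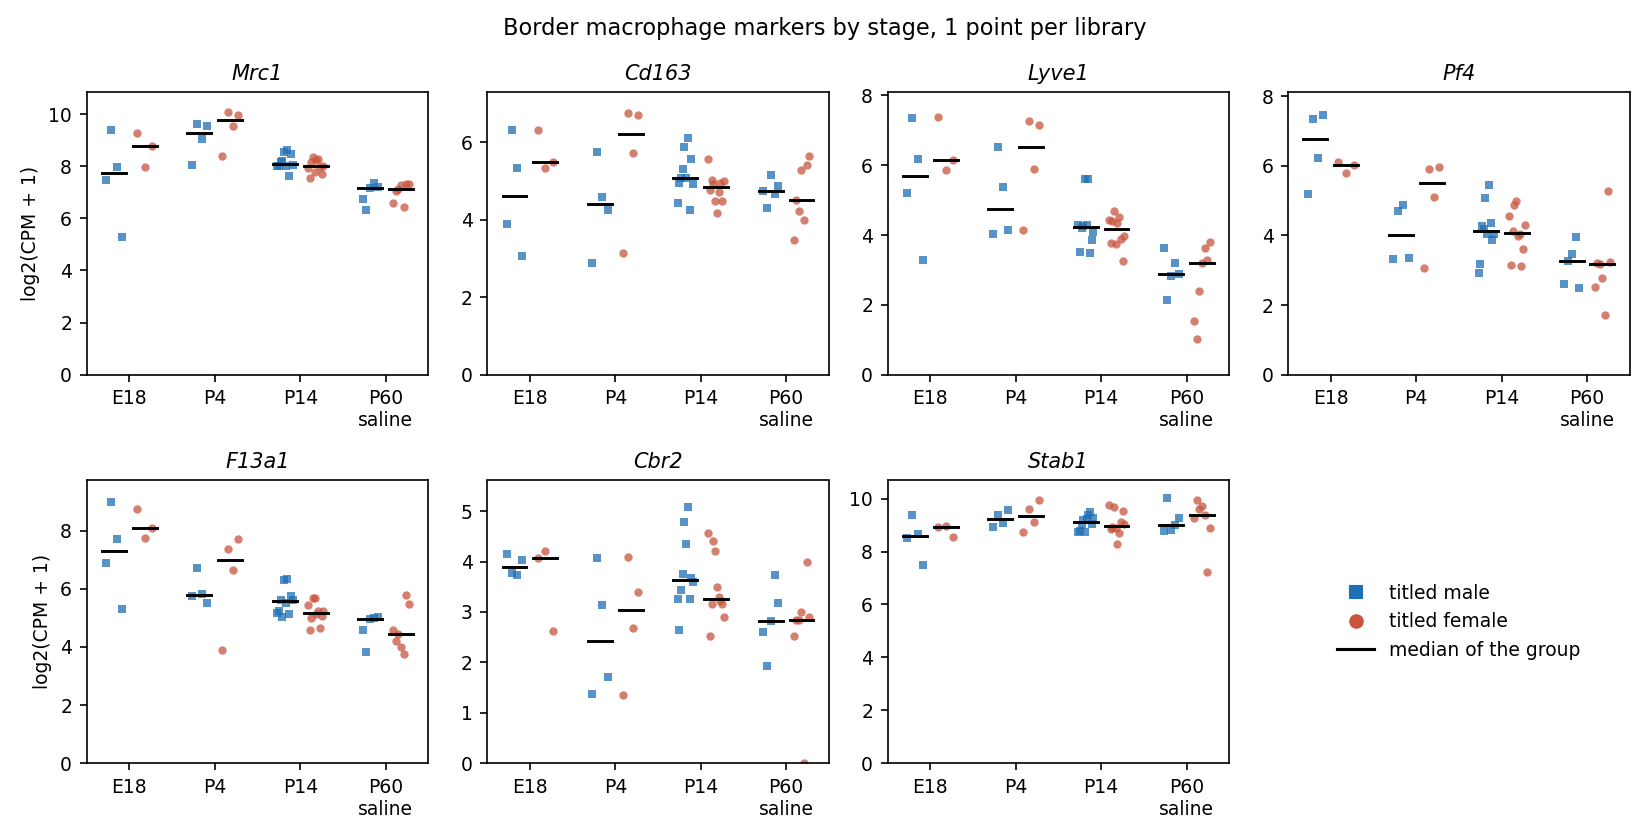
Levels of the 7 markers as log2(CPM + 1) in the 47 untreated and saline libraries by stage, 1 point per library, with squares for libraries titled male, circles for those titled female and a bar at the median of each group. Medians of Mrc1 are highest at P4, and those of Pf4 and F13a1 are highest at E18 and lowest at P60. Lyve1 has its lowest medians at P60, and its highest at E18 in male libraries and at P4 in female ones. Stab1 has a lower median at E18 than at the later stages.

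Mrc1, the mannose receptor, was highest at P4. At P4 the male libraries had 266, 776, 521 and 745 CPM and the female ones 336, 1089.9, 739.9 and 1009 CPM. At E18 the male libraries had 176, 666, 253 and 38.0 CPM and the female ones 624, 247 and 432 CPM. The ranges overlapped, but 5 of the 8 P4 libraries lay above all E18 libraries, and the lowest value of these libraries was that of the library labelled M_E18 4. Mrc1 rose by 1.11 ± 0.28 (log2, SE) at P4 against E18 (edgeR, adjusted p = 0.000914), and by 0.76 without the 3 libraries rich in Ttr, which was still called.

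Mrc1 then fell by 1.03 ± 0.21 at P14 against P4 (edgeR, adjusted p = 8.26e-05) and by 1.09 ± 0.20 at P60 with saline against P14 (edgeR, adjusted p = 2.24e-05). The lowest, median and highest values were 187, 258 and 392 CPM at P14, and 79.6, 141 and 162 CPM at P60 with saline. All 12 P60 saline libraries lay below all 20 P14 libraries. Such complete separation was found for 3.13% of the 10144 genes of at least 10.0 CPM on average at this step, and Mrc1 was the only member that showed it at any of the steps. Over the whole span Mrc1 fell by 1.01 ± 0.25 (edgeR, adjusted p = 0.000365).

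Cd163 passed the test at none of the developmental steps. Its level had a lowest, median and highest value of 7.30, 39.3 and 78.6 CPM at E18, of 6.36, 37.4 and 107 CPM at P4, of 17.1, 29.9 and 68.1 CPM at P14, and of 10.1, 25 and 49.1 CPM at P60 with saline. The spread within E18 and within P4 was wider than the distance between any of the stage medians. The fitted difference of P60 saline from E18 was -0.33, with a 95% interval from -1.03 to 0.38, which does not show that the stages were alike.

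Lyve1, the hyaluronan receptor, was not called at P4 against E18 and fell afterwards. P4 libraries had 15.4, 91.0, 40.5 and 16.6 CPM in males and 16.7, 152, 58.8 and 142 CPM in females. E18 libraries had 35.8, 162, 70.7 and 8.77 CPM in males and 167, 57.7 and 70.2 CPM in females. The 2 sets covered one another, and the fitted difference was -0.28 with an interval from -1.08 to 0.51. Lyve1 fell by 1.44 ± 0.32 at P14 against P4 (edgeR, adjusted p = 0.000326) and by 1.51 ± 0.36 at P60 with saline against P14 (edgeR, adjusted p = 0.000829). Its lowest, median and highest levels were 8.60, 17.7 and 47.9 CPM at P14 and 1.03, 7.21 and 13 CPM at P60 with saline. Over the whole span it had the largest fitted fall of the 7 members, 3.23 ± 0.41 on the log2 scale (edgeR, adjusted p = 3.32e-09), and 9 of the 12 P60 saline libraries lay below all 7 E18 libraries. At P60 with saline the lowest of these libraries held 1 count of Lyve1.

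Lyve1 is also a gene of lymphatic endothelium. The summed lymphatic endothelial list (Prox1, Pdpn, Flt4 and Ccl21a) had medians of 206 CPM at E18, 134 CPM at P4, 79.2 CPM at P14 and 52.5 CPM at P60 with saline. Of the 3 genes tested, only Pdpn was called over the whole span (-2.43, edgeR adjusted p = 2.45e-06), where 66.3% of all genes were called. Prox1 and Flt4 had differences of -0.63 and -0.28 there. Ccl21a, the lymphatic chemokine of that list, was at 0 in all 60 libraries. Across the 60 libraries, after subtraction of group means, the log2 level of Lyve1 and that of the summed lymphatic list had a Pearson r of -0.16. The part of lymphatic cells in the level of Lyve1 was not tested.

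Stab1 was the only member called higher at P60 with saline than at E18. P4 libraries had 480.5, 669.5, 534 and 759 CPM in males and 429, 779, 551 and 981 CPM in females. E18 libraries had 362, 667, 407 and 180.4 CPM in males and 483, 493.5 and 378 CPM in females. The ranges overlapped, with 4 of the 8 P4 libraries above all E18 libraries. Stab1 rose by 0.73 ± 0.26 at P4 against E18 (edgeR, adjusted p = 0.0186). That call did not survive the omission of the library labelled M_E18 4 (0.56, edgeR adjusted p = 0.0813), nor of F_P4 4 (0.52, edgeR adjusted p = 0.102), nor of any of 4 other E18 libraries left out singly.

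After P4 the level of Stab1 was not called at either step, with differences of 0.07 (interval -0.34 to 0.49) at P14 against P4 and 0.16 (interval -0.20 to 0.53) at P60 with saline against P14. It ran from 312 to 857 CPM at P14 with a median of 522 CPM, and from 147 to 1049 CPM at P60 with saline with a median of 619 CPM. The lowest of these was F_P60_Sal 6, the saline library rich in Ttr. Over the whole span Stab1 rose by 0.97 ± 0.25 (edgeR, adjusted p = 0.00063), and this call was kept when the library labelled M_E18 4 was left out.

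F13a1, a cross-linking enzyme, fell at every step. P4 libraries had 53.0, 105, 55.0 and 44.6 CPM in males and 14, 163, 98.2 and 207 CPM in females. E18 libraries had 117, 509.9, 207 and 38.7 CPM in males and 429.8, 212 and 270.2 CPM in females. The fall at P4 was 1.396 ± 0.34 (edgeR, adjusted p = 0.000695). The ranges overlapped, and the library labelled M_E18 4 lay far below the other E18 libraries. Without it the fall was 1.64.

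The later falls of F13a1 were smaller, 0.80 ± 0.27 at P14 against P4 (edgeR, adjusted p = 0.0143) and 0.70 ± 0.26 at P60 with saline against P14 (edgeR, adjusted p = 0.029). Its lowest, median and highest levels were 22.9, 36.8 and 78.7 CPM at P14 and 12.5, 22.8 and 53.6 CPM at P60 with saline. The call at P14 against P4 was lost without F_P4 4 (edgeR, adjusted p = 0.0632) or without M_P4 2 (edgeR, adjusted p = 0.072). At P60 with saline against P14, leaving out any of 12 single libraries of the 32 raised edgeR's adjusted p to between 0.0513 and 0.0764, and upper-quartile scaling gave 0.0602. With the replicate number as a block, edgeR's adjusted p was 0.0564 at the step to P14 and 0.114 at the step to P60. Over the whole span the fall of 2.89 ± 0.32 had the smallest adjusted p of the members (edgeR, 7.65e-11), and 10 of the 12 P60 saline libraries lay below all E18 libraries.

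Pf4 fell early. P4 libraries had 9.01, 24.9, 28.0 and 9.11 CPM in males and 7.40, 59.4, 33.7 and 61.5 CPM in females. E18 libraries had 35.2, 161, 73.6 and 173 CPM in males and 67.8, 54.7 and 63.6 CPM in females. Here 6 of the 8 P4 libraries lay below all E18 libraries, and the fall was 1.62 ± 0.40 (edgeR, adjusted p = 0.000927). The library labelled M_E18 4, the lowest of the E18 libraries for Mrc1, Cd163, Lyve1, F13a1 and Stab1, was the highest for Pf4, and without it Pf4 fell by 1.402 (edgeR, adjusted p = 0.00366).

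P14 against P4 gave -0.32 for Pf4 with an interval from -0.99 to 0.35, and the next step a fall of 0.94 ± 0.34 (edgeR, adjusted p = 0.0206). The lowest, median and highest levels were 6.53, 15.9 and 42.6 CPM at P14 and 2.28, 8.17 and 37.4 CPM at P60 with saline. The highest saline value, in F_P60_Sal 6, stood apart from the other 11. The call at this last step was lost without M_P14 7 (edgeR, adjusted p = 0.055) or without F_P60_Sal 5 (edgeR, adjusted p = 0.0506). The span from E18 was a fall of 2.88 ± 0.39 (edgeR, adjusted p = 1.22e-08).

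Pf4 is abundant in platelets, and the 10 platelet and megakaryocyte genes were low throughout. They summed to 40.9 to 73.9 CPM at E18 and to 17.6 to 32.0 CPM at P4. Their medians were 17.6 CPM at P14 and 16.7 CPM at P60 with saline. Of the 3 that could be tested, Gp1bb fell by 2.15 at P4 against E18 (edgeR, adjusted p = 2.59e-06), where 48.3% of all genes were called. Itga2b (-0.57) and Gp9 (0.37) were not called at that step. Over the whole span Gp1bb (-3.66) and Itga2b (-1.44) were called lower and Gp9 (3.30) higher, where 66.3% of all genes were called. Gp6 was at 0 in all 60 libraries, and Ppbp, a granule chemokine of platelets, was at 0 in 10 of 20 P14 libraries and in 9 of 12 P60 saline libraries. Across the 60 libraries, after subtraction of group means, the log2 level of Pf4 and that of the summed platelet list had a Pearson r of 0.10. The part of platelet RNA in the fall of Pf4 at P4 was not tested.

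Cbr2, the reductase, was measured at low counts. P4 libraries had 1.59, 15.9, 7.79 and 2.28 CPM in males and 1.56, 16.1, 5.37 and 9.50 CPM in females. E18 libraries had 16.7, 12.7, 12.3 and 15.3 CPM in males and 15.9, 17.5 and 5.13 CPM in females. The P4 values spread over most of the E18 range and below it, and the difference of -0.77 was not called (edgeR, adjusted p = 0.125). It was called without F_E18 3 (-1.05, edgeR adjusted p = 0.0492), without F_P4 2 (-1.07, edgeR adjusted p = 0.0427) or without M_P4 2 (-1.20, edgeR adjusted p = 0.0234). Cbr2 rose by 1.03 ± 0.36 at P14 against P4 (edgeR, adjusted p = 0.0176). Without the 2 libraries of the first P4 date, which had the lowest Cbr2 of the 8, the difference was 0.70 and was not called (edgeR, adjusted p = 0.138), and it was also lost without M_P4 4 alone (edgeR, adjusted p = 0.0509) and with the replicate number as a block (edgeR, adjusted p = 0.123). Cbr2 fell by 0.96 ± 0.33 at P60 with saline against P14 (edgeR, adjusted p = 0.0153), a call lost with the replicate block (edgeR, adjusted p = 0.0684). Its lowest, median and highest levels were 4.75, 10.0 and 33.0 CPM at P14 and 0, 6.18 and 15.0 CPM at P60 with saline.

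**Figure D2:**
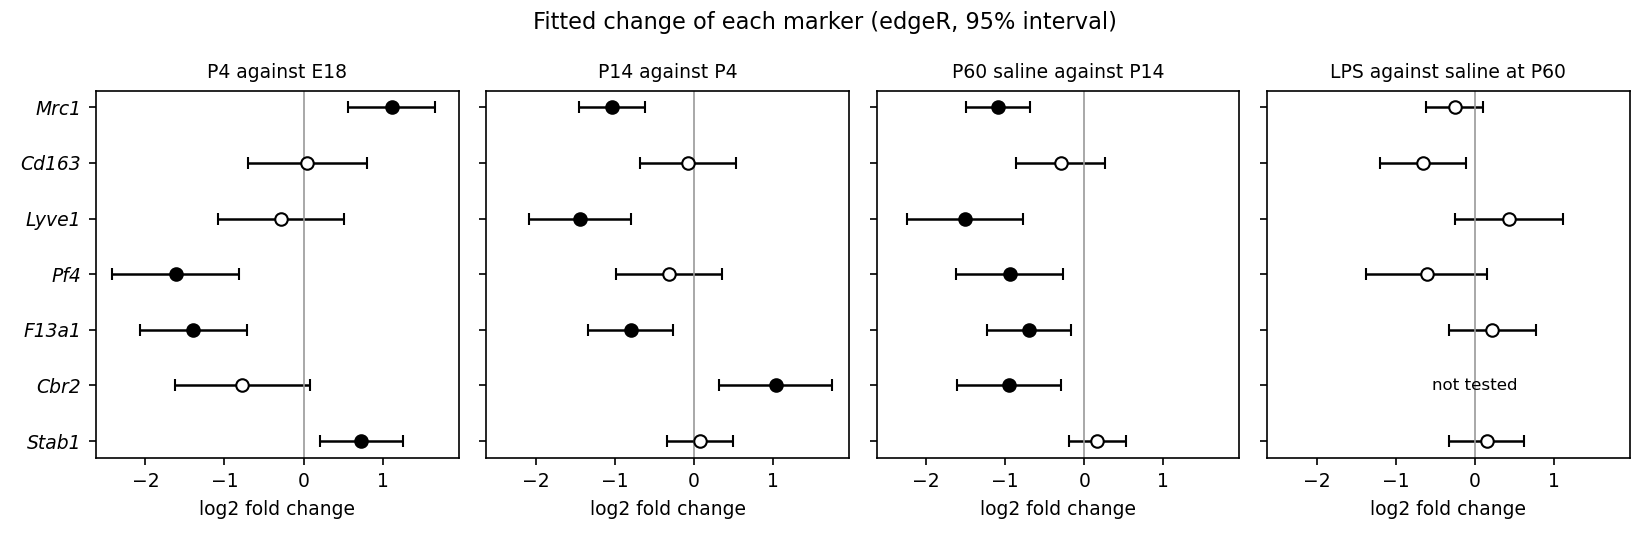
Fitted log2 fold change of each marker with its 95% interval (edgeR) at the 3 developmental steps and for LPS against saline at P60, with filled points for changes called at an adjusted p of 0.05. Only Mrc1 and Stab1 are filled to the right of 0 at P4 against E18, 5 markers are filled to the left of 0 at P60 with saline against P14, and none is filled for LPS.

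Levels of different genes can be set beside one another only per length of transcript. At E18 the median level per kilobase was highest for Pf4 at 115 CPM per kb, followed by F13a1 at 53.6, Stab1 at 50.8, Mrc1 at 47.1, Lyve1 at 24.3, Cbr2 at 13.8 and Cd163 at 8.85 CPM per kb. Each neighbouring pair in that order overlapped in range. At P4 Mrc1 was first with 138 CPM per kb, then Stab1 with 76.3 and Pf4 with 45 CPM per kb. In the P60 saline libraries Stab1 was first with 77.4 CPM per kb, then Mrc1 with 26.2 and Pf4 with 13.9 CPM per kb, while Lyve1 was last with 2.49 CPM per kb. Stab1 ran from 18.4 to 131 CPM per kb there and Mrc1 from 14.8 to 30.1 CPM per kb, so these neighbours still overlapped. Between E18 and P60 with saline, Stab1, Mrc1 and Cd163 stood higher in the order of medians at P60, Pf4, F13a1 and Lyve1 stood lower, and Cbr2 kept its place. F13a1, Cd163 and Cbr2 had close medians in the P60 saline libraries, 5.78, 5.64 and 5.57 CPM per kb, with overlapping ranges. The order among them is therefore not settled.

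The proportion of the markers to one another was described through ratios within each library, a measure chosen after the values were seen and not tested. For every 100 counts of Mrc1 there were 4.17 to 20.5 counts of F13a1 in the P4 libraries (median 13.4), against 62.6 to 101.9 in the E18 libraries (median 76.6). These ranges did not overlap, although the levels of F13a1 did. Lyve1 showed the same separation, with 2.23 to 14.1 counts per 100 of Mrc1 at P4 against 16.3 to 27.9 at E18. Pf4 separated too, with 1.22 to 6.09 counts per 100 of Mrc1 at P4 against 10.9 to 456 at E18. The highest E18 ratios of F13a1 and Pf4 were those of the library labelled M_E18 4, where Mrc1 was lowest. Of 10143 genes of at least 10.0 CPM on average, 2.43% had ratios to Mrc1 that lay lower in all P4 libraries than in all E18 libraries, and 0.05% had ratios that lay higher in all. Mrc1, the base of every ratio, itself rose at this step. At P60 with saline the median ratios were 20.01 for F13a1 and 4.70 for Lyve1.

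Of 18 other border macrophage genes, 16 could be tested through development. At P4 against E18, 6 were higher and 0 lower, where 48.3% of all genes were called, led by the transcription factor Maf (2.01 ± 0.27, edgeR adjusted p = 4.78e-08) and the endocytic adaptor Dab2 (0.90 ± 0.23, edgeR adjusted p = 0.00147). At P14 against P4, 1 was higher and 6 were lower, where 41.5% of all genes were called. The folate receptor Folr2 fell by 2.23 ± 0.26 (edgeR, adjusted p = 4.29e-09) and the endothelin receptor Ednrb by 1.69 ± 0.28 (edgeR, adjusted p = 3.71e-06). At P60 with saline against P14, 1 was higher and 6 were lower, where 44.1% of all genes were called, led by the growth factor binding protein Igfbp4, which fell by 2.01 ± 0.14 (edgeR, adjusted p = 1.16e-15). Over the whole span 5 were higher and 6 lower, where 66.3% of all genes were called. The number called was near or below the background in all 4 comparisons. The whole-span changes included Folr2 at -2.56, Ednrb at -2.53, Maf at 2.63 and the ceruloplasmin gene Cp at 2.50 on the log2 scale.

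Markers of other cells also changed at these steps. Of all genes tested, 25.5% were called higher and 22.7% lower at P4 against E18, and 20.6% and 20.8% at P14 against P4. The shares were 18.5% and 25.7% at P60 with saline against P14, and 31.4% and 34.8% over the whole span. The 12 microglial identity genes were all higher at P4 against E18 and at P14 against P4, and the 6 neuronal genes were all lower at P4 against E18. The monocyte list had 4 of 7 tested genes higher at P4 against E18, with Ccr2 but not Ly6c2 among them. At P14 against P4 it had 6 of 7 lower, with Ly6c2 but not Ccr2 among them. Ccr2 was called higher at P60 with saline against P14 (0.89) and over the whole span (2.18). The sum of the monocyte list, which weighs genes by their level, had a lower median at P4 than at E18. The medians were 266 CPM at E18, 193 CPM at P4, 51.3 CPM at P14 and 29.8 CPM at P60 with saline. The summed choroid plexus list had medians of 29803 CPM, 33732 CPM, 26024 CPM and 51110.0 CPM at the same stages. The neutrophil list had 5 of 6 genes higher at P4 against E18 and 6 of 6 lower at P14 against P4, with median changes of 2.55 and -3.00 on the log2 scale. The meningeal fibroblast list had 1 of 8 genes higher and 4 lower at P60 with saline against P14, and 1 higher and 6 lower over the whole span. The part of these cells in the changes of the members was not tested.

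After LPS none of the 6 members that could be tested was called, where 14.4% of 10538 genes were called, 10.5% higher and 3.95% lower. Cbr2 was too low for the test at P60. DESeq2 also called 0 of the 6, and 1 of the 6, Cd163, had an unadjusted p under 0.05 in edgeR, as had 26.1% of all genes. Within males and within females the count was again 0 of 6 in edgeR and in DESeq2. In males 19.5% of all genes were called (7.57% lower), with 0 of the 6 under an unadjusted 0.05, against 33.5% of all genes. In females 5.06% were called (0.892% lower), with 1 of the 6, Cd163, under an unadjusted 0.05, against 14.5% of all genes.

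Cd163 had a lowest, median and highest level of 5.48, 15.0 and 28.5 CPM in the 13 LPS libraries, against 10.1, 25 and 49.1 CPM in the 12 saline libraries. The groups overlapped, with 4 LPS libraries below all saline libraries. The fitted difference was -0.65, with an interval from -1.20 to -0.11 (edgeR, adjusted p = 0.104). It ran from -0.78 to -0.53 when single libraries were left out, and without F_P60_Sal 1 it reached the threshold with an adjusted p of 0.05 in edgeR. No date held both treatments, and the median of Cd163 was 19.95, 7.76 and 18.8 CPM on the 3 LPS dates and 17.8, 20.1 and 38.0 CPM on the 3 saline dates.

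None of the other receptors was called after LPS. Mrc1 had 50.4, 113 and 172 CPM as its lowest, median and highest level with LPS, against 79.6, 141 and 162 CPM with saline, and 5 LPS libraries lay below all saline libraries. Its fitted difference was -0.25 (interval -0.62 to 0.11, edgeR adjusted p = 0.388). Lyve1 had 1.03, 8.17 and 15.6 CPM with LPS, against 1.03, 7.21 and 13 CPM with saline, a fitted difference of 0.43 (interval -0.25 to 1.12). Stab1 had 204, 697 and 1034 CPM with LPS, against 147, 619 and 1049 CPM with saline, a fitted difference of 0.15 (interval -0.32 to 0.62). The intervals of all 3 include 0 and do not show that their levels were alike.

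F13a1 was high in 2 of the LPS libraries. Its lowest, median and highest level was 13.4, 23.3 and 72.8 CPM with LPS, against 12.5, 22.8 and 53.6 CPM with saline, and the fitted difference was 0.22 (interval -0.33 to 0.78). The libraries M_P60_LPS 3 and M_P60_LPS 4 had 70.0 and 72.8 CPM and were the only LPS libraries above all saline ones. Their monocyte lists summed to 573 and 735 CPM and their neutrophil lists to 5886 and 4966 CPM, the highest of the LPS libraries, where the medians were 109 CPM and 722 CPM. Without them the difference in F13a1 was -0.07. The part of monocyte RNA was not tested beyond this.

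Pf4 and Cbr2 were low at P60 in both treatments. Pf4 had 2.08, 4.67 and 13 CPM with LPS, against 2.28, 8.17 and 37.4 CPM with saline, and the fitted difference of -0.61 had an interval from -1.37 to 0.16 (edgeR, adjusted p = 0.314). Cbr2 had 1.17, 4.16 and 9.01 CPM with LPS, against 0, 6.18 and 15.0 CPM with saline, and was not tested. Both ranges overlapped, and the top saline value of both genes came from F_P60_Sal 6.

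**Figure D3:**
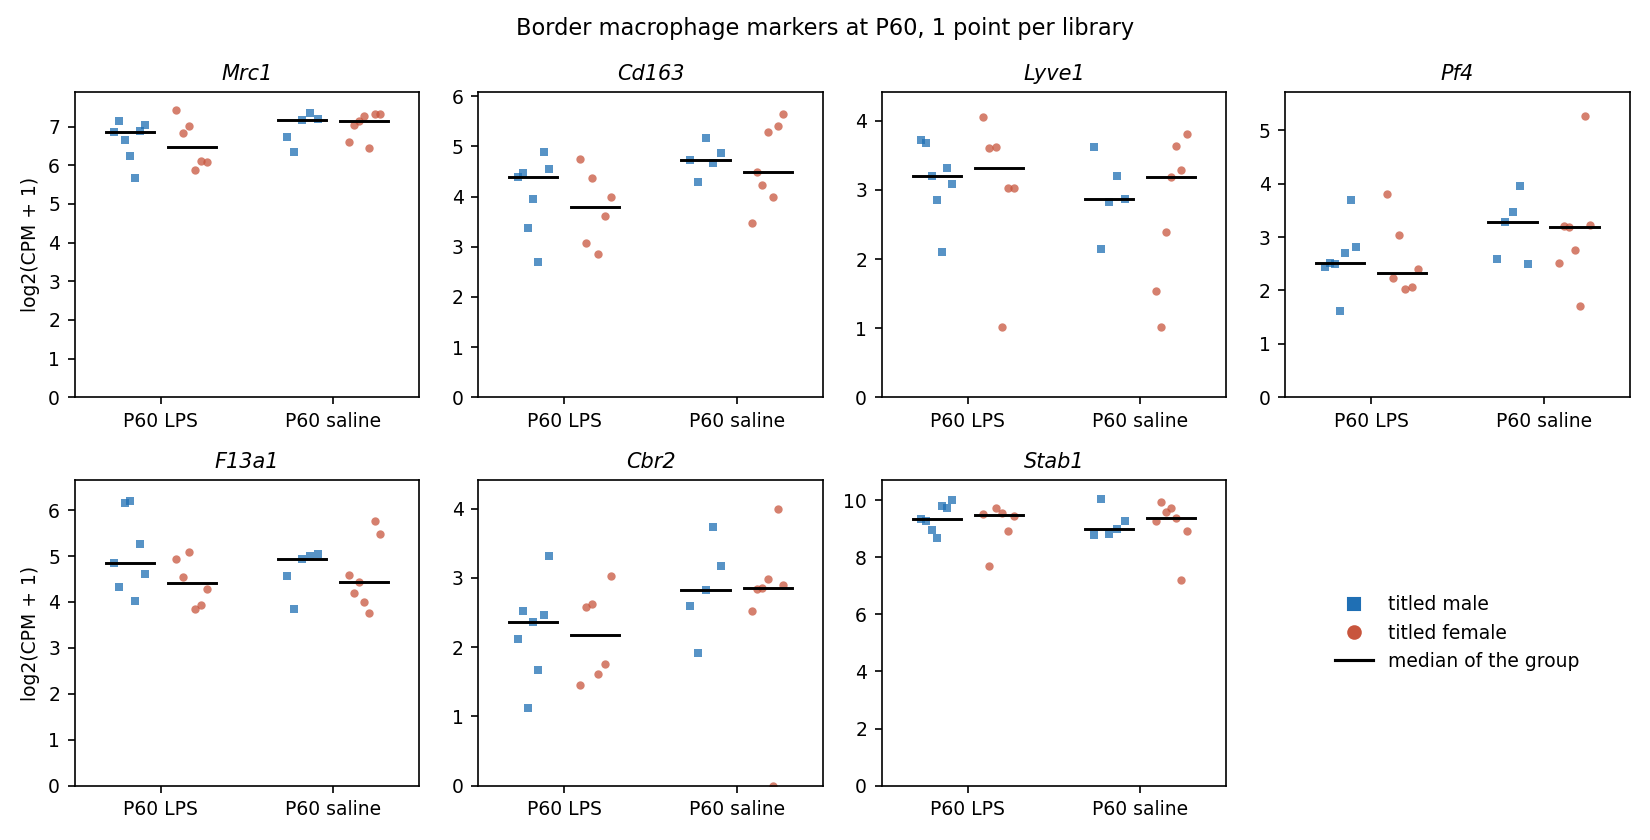
Levels of the 7 markers as log2(CPM + 1) at P60 in LPS and saline libraries, 1 point per library, with squares for libraries titled male, circles for those titled female and a bar at the median of each group. LPS and saline libraries overlap for every marker, and 2 male LPS libraries stand above the others for F13a1.

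Among the 18 other border macrophage genes, 14 could be tested at P60, and 2 were higher and 2 lower with LPS, against 14.4% of all genes called. Cp rose by 2.09 ± 0.25 (edgeR, adjusted p = 3.4e-07) and Dab2 by 0.41 ± 0.14 (edgeR, adjusted p = 0.0491). Nrp1, a coreceptor of semaphorins, fell by 0.80 ± 0.13 (edgeR, adjusted p = 1.76e-05) and Maf by 0.72 ± 0.23 (edgeR, adjusted p = 0.0276). The neutrophil list had 6 of 6 genes higher and the monocyte list 6 of 7, while the microglial identity list had 5 of 12 lower. The monocyte gene not called was Ccr2 (-0.29).

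Sex was compared within each stage, and no member was called. At E18 0.0722% of all genes were called (0.0505% higher in males, 0.0217% lower). At P4, P14 and P60 with saline 0.0433% were called at each stage (0.0144% lower in males), and 0.142% in the LPS libraries (0.038% lower in males). DESeq2 also called 0 members in each of these comparisons. Unadjusted p-values under 0.05 in edgeR were found for 1 member at E18 (Pf4), 4 at P4, 0 at P14, 0 at P60 with saline and 1 with LPS (F13a1). The shares of all genes under that threshold were 18.8% at E18, 0.332% at P4, 4.73% at P14, 9.67% at P60 with saline and 16.2% with LPS. The test of sex by age over the 4 stages called 0 of 7 members and 0% of all genes, with 2 members and 12.4% of all genes under an unadjusted 0.05, and DESeq2 called 0 members. That of sex by LPS called 0 of 6 members and 0.883% of all genes (0.294% higher, 0.588% lower), with 0 members and 21.4% of all genes under an unadjusted 0.05, and DESeq2 again called 0 members.

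The 4 members at P4 were Cd163, Lyve1, Pf4 and F13a1, and all were lower in male libraries. Cd163 had 6.36, 52.4, 22.8 and 17.9 CPM in males on the 4 P4 dates, against 7.79, 107, 52.0 and 103 CPM in females on those dates. Male libraries were lower on each date, while the ranges of the sexes overlapped. The fitted difference was -1.45 ± 0.51 for Cd163, -1.21 ± 0.55 for Lyve1, -1.22 ± 0.56 for Pf4 and -0.93 ± 0.46 for F13a1, each with an adjusted p of 1 in edgeR. With the date as a block the differences were -1.38, -1.15, -1.09 and -0.59, again with an adjusted p of 1.

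Each P4 date held 1 library of each sex. Male libraries were lower than female ones for 3, 7, 6 and 7 of the 7 members on the 4 dates. Mrc1, Cd163 and Lyve1 were lower in males on all 4 dates, and Pf4, F13a1 and Stab1 on 3. The gap was widest on the fourth date, where Lyve1 had 16.6 CPM in the male library and 142 CPM in the female one, and Pf4 9.11 CPM and 61.5 CPM. Mrc1 and Stab1 differed less on that date, with 745 and 759 CPM in the male library against 1009 and 981 CPM in the female one. On that date the neutrophil list summed to 3733 CPM in the male library and 8561 CPM in the female one, and the microglial identity list to 17460 and 13772 CPM, and the part of this in the gap was not tested. The members of one date share their libraries and are not independent observations.

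Date carried a wide spread at P4 in both sexes. The 2 libraries of the first date were the lowest of the 8 for 5 of the 7 members, Mrc1, Cd163, Stab1, Pf4 and Cbr2. They had summed levels of the 7 members of 832 CPM in the male and 813 CPM in the female library, against 1209 to 2514 CPM in the other 6. The same 2 libraries had the highest blood endothelial sums, 2849 and 2955 CPM, and the lowest microglial identity sums, 9237 and 10599 CPM, of the 8 P4 libraries. Whether these values bear on the members was not tested. Leaving both out changed the P4 against E18 difference of Mrc1 to 1.37 and that of F13a1 to -1.16, and both were still called.

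**Figure D4:**
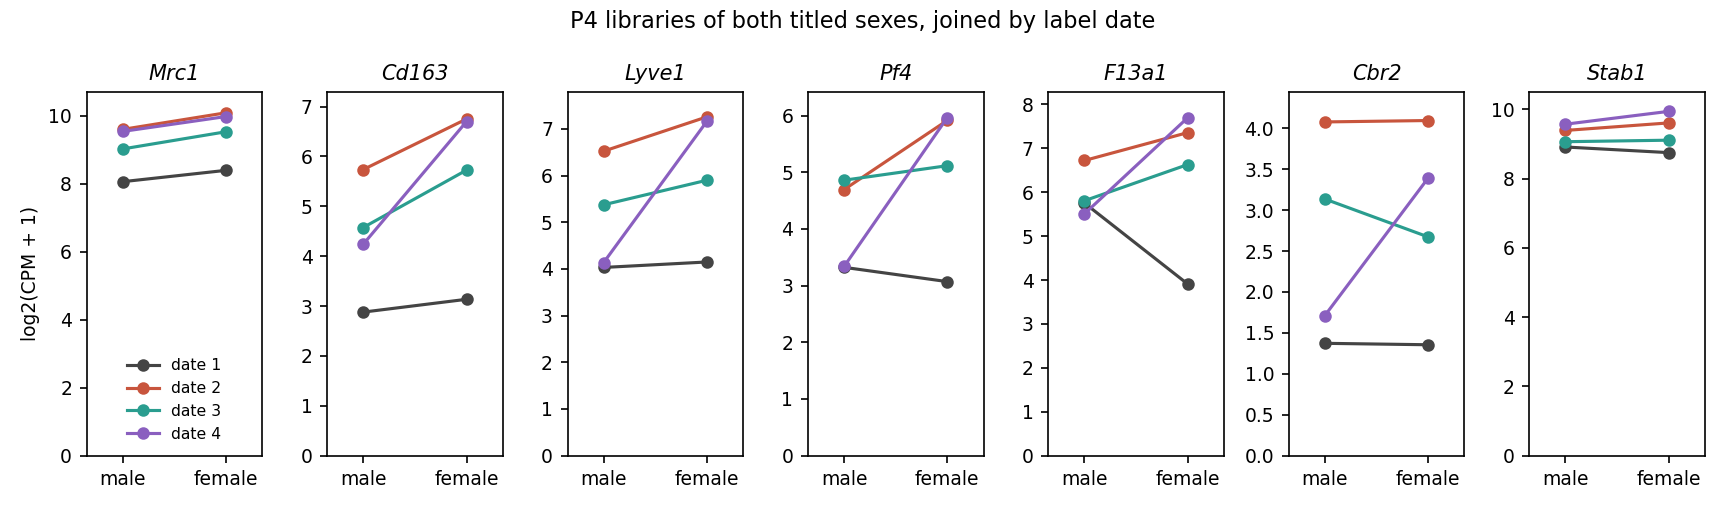
Levels of the 7 markers as log2(CPM + 1) in the P4 libraries, with male left and female right and a line joining the 2 libraries of each label date. All 4 lines go up from male to female for Mrc1, Cd163 and Lyve1, and the 2 libraries of date 1 are the lowest for most markers.

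At the other stages the direction between the sexes was mixed. At P14 the male minus female differences of the 7 members ran from -0.09 for Stab1 to 0.38 for F13a1. At P60 with saline they ran from -0.26 for Pf4 to 0.14 for Lyve1. At E18 Pf4 had a difference of 1.17 ± 0.58 (edgeR, adjusted p = 0.265), which was 0.55 without the library labelled M_E18 4. In LPS libraries F13a1 had a difference of 0.84 ± 0.38 (edgeR, adjusted p = 0.276), which was 0.23 without M_P60_LPS 3 and M_P60_LPS 4.

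Variation between libraries of the same group grouped the members in another way. The mean of each of the 10 groups of sex, stage and treatment was subtracted from the log2 CPM, and Pearson's r was taken over the 60 libraries as a description, since the points share depth, date and composition. Mrc1 and Cd163 had an r of 0.80, Cd163 and Lyve1 0.80, Mrc1 and Lyve1 0.76, and F13a1 had 0.71 with Mrc1, 0.72 with Cd163 and 0.70 with Lyve1. Pf4 and Cbr2 formed another pair with 0.62. The 15 pairs without Stab1 ran from 0.36 to 0.80 with a median of 0.57. Values at the low end were shared by many genes. Pf4, at 0.38 with Mrc1, ranked 2524 by likeness to Mrc1 among 10143 genes of at least 10.0 CPM on average. Mrc1 ranked 154 by likeness to Pf4. The 6 pairs with Stab1 ran from 0.02 to 0.28 with a median of 0.05.

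**Figure D5:**
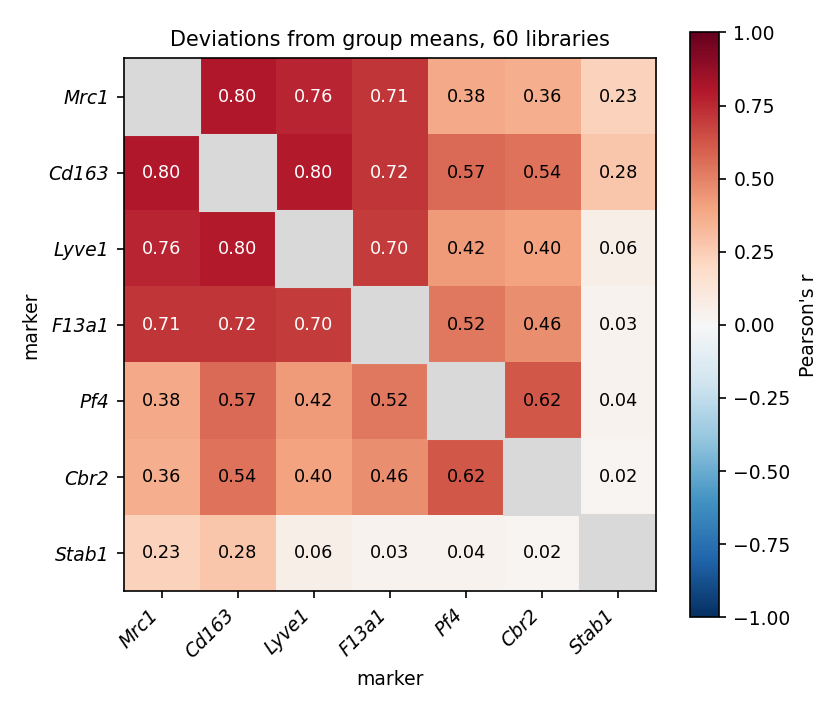
Pearson's r between the 7 markers over 60 libraries, from log2 CPM after subtraction of the mean of each group of sex, stage and treatment. Mrc1, Cd163, Lyve1 and F13a1 form a block of values from 0.70 to 0.80, and the row of Stab1 holds values of at most 0.28.

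The genes most like each member were taken as the 3 with the highest r over these libraries among the genes of at least 10.0 CPM on average. For Mrc1, Cd163 and Lyve1 they were almost entirely other members, out of 10143 genes ranked. Cd163 had Mrc1, Lyve1 and F13a1 (0.72), Lyve1 had Cd163, Mrc1 and F13a1 (0.70), and Mrc1 had Cd163, Lyve1 and the RIKEN transcript A530054K11Rik (0.76). The nearest gene to F13a1 was Msr1, a macrophage scavenger receptor (0.78). Those nearest to Pf4 were the chemokine Ccl24 (0.66) and the MHC class II genes H2-Eb1 (0.60) and H2-Aa (0.60). Cbr2 had 0.62 with Pf4 but was under 10.0 CPM on average, so it was not ranked for the other members. Cbr2 was nearest to Pf4, to Ccl24 (0.60) and to Ms4a7 (0.60), another border macrophage gene. Stab1 had none of these and was nearest to Hmha1 (0.93), Prex1 (0.91) and Arhgap4 (0.91).

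Measures of library composition went with some members and not with others. Over the same 60 libraries Stab1 had an r of -0.62 with the share of counts in transcripts of at most 1500 bases, and Mrc1 had -0.50, whereas Pf4, whose transcript has 588 bases, had 0.36. With the summed choroid plexus list, Stab1 had -0.46, Cbr2 0.35 and Pf4 0.32, while Mrc1 had -0.06, Lyve1 -0.16 and F13a1 0.08. Values with the microglial identity list ran from -0.12 for F13a1 to 0.38 for Stab1, with Mrc1 next at 0.22. Those with the lymphatic endothelial list ran from -0.55 for Stab1 to -0.04 for Cbr2. F13a1 had 0.42 with the monocyte list. Mrc1, F13a1 and Lyve1 had 0.67, 0.62 and 0.54 with the sum of the other border macrophage genes, and Stab1 had 0.09. With the total count of a library no member had an r beyond 0.34 in size. What these measures contribute to the levels of the members was not tested.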

How the data were processed

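Poly(A) RNA of 60 mouse microglial libraries was sequenced with a stranded kit, per the labels. The authors deposited integer counts per transcript row, 28644 rows for 22869 symbols. CASAVA 1.8.2, the mm9 build and edgeR are named per the submitters' processing notes. Which aligner and counter were run was not given in the sources used here. For each symbol the marked row was used, otherwise the row with most counts. F13a1 and Cd163 have 2 rows each, with equal counts in 59 and 50 libraries.

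The 47 developmental libraries (8 groups) and the 25 P60 libraries (4 groups) were each fitted in edgeR 4.0.16 under R 4.3.3 with TMM scaling, the default filter on low counts and robust quasi-likelihood tests, two-sided, with Benjamini-Hochberg adjustment over all genes tested. Sex comparisons are male over female. The procedure was tested on simulated data. DESeq2 1.42.0 was an alternative, as were other scalings and filters, other choices of transcript row or sex label, a replicate or date block, and leaving libraries out. CPM and figures used Python 3.11.15, and lengths came from GENCODE vM21. Correlations used log2 CPM with a prior count of 2.

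The members, gene lists and tests were chosen with earlier results of these data known. All members were named, with up to 4 genes of smallest p of another list and the 3 most alike genes of each member. Replicate numbers shared a date at P4 in 4 of 4 cases (r of 0.35 to 0.43 between deviations of the sexes), so P4 libraries are paired by date. No 2 libraries were copies, with a chi-square per gene of at least 1.96 over 178 pairs within groups.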

Additional observations from a re-analysis of the deposited data

Results flagged for a closer look

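In 63 sets of 4 to 10 libraries (1 member in 1 group), the highest or lowest value was compared with its nearest neighbour by Dixon's criterion, and 3 values stood apart. Chance alone flags about 1 in 20 such sets, which is 3.15 of 63. Pf4 in the saline library F_P60_Sal 6 was at 37.4 CPM, with 8.33 CPM as the next of the 7. That library also had 12% of its counts in Ttr and 27.9% in transcripts of at most 1500 bases. Pf4 in M_P60_LPS 6 was at 12.02 CPM, with 6.01 CPM as the next of the 7. Cd163 in F_P14 1 was at 46.5 CPM, with 31.7 CPM as the next of the 10.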

How the results depend on the processing

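Of 93 results, 2927 values under other settings were computed: 2884 kept their side of the threshold, 35 fell below it, 8 rose above it, and none of the called changes turned its direction. Libraries of different stages with the same number shared no date. The mean r between their deviations ran from -0.19 (M_P14 with M_P4) to 0.27 (F_P4 with F_E18), so whether the numbers pair them is not known. With the replicate number as a block in edgeR, 2 members were called at P14 against P4 in place of 4 (F13a1 and Cbr2 were lost). At P60 with saline against P14 it was 3 in place of 5 (F13a1 and Cbr2 were lost). The block changed no other count of called members. Leaving out single libraries gave 3 to 5 members at P4 against E18 (4 with all), 3 to 4 at P14 against P4 (4 with all), 5 to 6 at P60 with saline against E18 (5 with all), 3 to 5 at P60 with saline against P14, 0 to 1 with LPS, and 0 to 1 for male against female at E18, where Mrc1 was called without M_E18 2 (-1.32, edgeR adjusted p = 0.0141). DESeq2 called Cbr2 lower at P60 with saline against E18. F13a1 at P60 with saline against P14 was also lost with upper-quartile scaling, with no filter on low counts and with Ttr removed before scaling, and Stab1 at P4 against E18 was lost without the libraries rich in Ttr. The cause was not tested. For P60 saline against E18 the all-gene median was -0.08 with TMM and -0.26 with DESeq2's size factors. For sex by LPS, 93 genes were called in edgeR, 601 by DESeq2 and 0 with sex from the characteristics. Leaving out the first P4 date, or M_P60_LPS 3 and 4, was chosen after seeing the data. Depth limits Cbr2, Lyve1 and Pf4 at P60, where counts were as low as 0, 1 and 2 per library.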
